A study of Mus musculus with 4 samples.

Results

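Ribosome assembly and rRNA processing factors were followed as a set of 55 named genes, out of 24411 gene rows, in haematopoietic stem cells (HSC) of mouse bone marrow. Of the 55, 25 act mainly on the small ribosomal subunit, 24 on the large subunit and 6 on both or on nucleolar steps that belong to neither. All 55 had a row in each library, Utp4 under its older symbol Cirh1a. Levels were counted in 188 cells with at least 1000 detected genes.

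The study compared HSC of Mat KO mice (44 and 48 kept cells in libraries 1 and 2) with HSC of wild-type mice (WT; 48 and 48 kept cells), all sorted by flow cytometry and picked singly by mouth pipette. The title of the series places the work at the imprinted Dlk1-Gtl2 locus and its small nucleolar RNAs. The labels give neither the part of the locus that is deleted nor the strain, age or number of the mice. Meg3, the Gtl2 transcript that is expressed from the maternal allele, had 18.4 and 32.8 CPM (UMIs scaled to the library's total) in Mat KO libraries, against 52.8 and 47.0 CPM in WT libraries, so both Mat KO libraries still held some. Rian, from the same locus, had 0 and 25 UMIs in Mat KO libraries, against 0 and 0 in WT libraries. Mirg, also from the locus, had 0 and 0 UMIs in Mat KO libraries, against 47 and 0 in WT libraries. Dlk1 had 13 and 12 UMIs in Mat KO libraries, against 0 and 11 in WT libraries.

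A ribosome is built in the nucleolus from a long precursor RNA that is folded, chemically modified, cut and dressed with ribosomal proteins by assembly factors that leave before the ribosome is used. Small-subunit factors act in the SSU processome, a large particle that forms on the nascent precursor around a box C/D small nucleolar RNA, and in the later pre-small-subunit particle. Large-subunit factors act in a separate series of particles that mature in the nucleolus and nucleoplasm before export. Many of these genes are known targets of the transcription factor MYC, and long-term HSC are known for mostly resting outside the cell cycle and making protein slowly.

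Promoters are shown for 5 factors named below, since a known sign of MYC-type control is the E-box CACGTG, which reads the same on both strands. Utp18, Ltv1, Rpf2 and Mybbp1a are shown because they carry it: they are 4 of the 19 members named in the cell-cycle comparison that have an entry, or 21.1%. None of these 4 passed the main test there, and Mphosph10, the member of smallest p between genotypes, does not carry it. Each sequence runs from 250 bases before the annotated start to 50 after it, 5′ to 3′ on the gene's strand, from RefSeq on build GRCm38.p6. Capitals mark CACGTG. Rpf2 has a second annotated start, which is not shown.
Utp18 (chr11:93885717-93886016, minus strand): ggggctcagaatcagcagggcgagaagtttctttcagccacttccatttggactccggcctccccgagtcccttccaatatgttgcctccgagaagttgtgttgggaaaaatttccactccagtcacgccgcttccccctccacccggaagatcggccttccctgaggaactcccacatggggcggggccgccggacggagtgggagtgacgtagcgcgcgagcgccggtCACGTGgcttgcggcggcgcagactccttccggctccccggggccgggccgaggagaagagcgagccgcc
Ltv1 (chr10:13193088-13193387, minus strand): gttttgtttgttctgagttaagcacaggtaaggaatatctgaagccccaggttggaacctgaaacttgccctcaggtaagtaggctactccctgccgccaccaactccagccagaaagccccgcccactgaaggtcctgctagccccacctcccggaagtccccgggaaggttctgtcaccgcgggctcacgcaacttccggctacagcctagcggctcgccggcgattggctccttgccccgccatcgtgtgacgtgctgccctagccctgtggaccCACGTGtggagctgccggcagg
Rpf2 (chr10:40246990-40247289, minus strand): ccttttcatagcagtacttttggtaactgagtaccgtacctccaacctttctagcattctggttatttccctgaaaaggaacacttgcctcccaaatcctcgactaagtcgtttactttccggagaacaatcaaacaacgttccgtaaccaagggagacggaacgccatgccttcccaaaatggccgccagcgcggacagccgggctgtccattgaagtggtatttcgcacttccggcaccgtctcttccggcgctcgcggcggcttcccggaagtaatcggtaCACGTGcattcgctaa
Mybbp1a (chr11:72441077-72441376, plus strand): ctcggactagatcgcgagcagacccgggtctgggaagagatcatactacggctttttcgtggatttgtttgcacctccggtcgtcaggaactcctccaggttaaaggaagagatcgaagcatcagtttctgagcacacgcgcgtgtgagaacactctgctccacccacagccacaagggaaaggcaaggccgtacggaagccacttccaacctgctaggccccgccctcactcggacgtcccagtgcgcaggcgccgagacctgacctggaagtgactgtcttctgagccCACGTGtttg
Mphosph10 (chr7:64392187-64392486, minus strand): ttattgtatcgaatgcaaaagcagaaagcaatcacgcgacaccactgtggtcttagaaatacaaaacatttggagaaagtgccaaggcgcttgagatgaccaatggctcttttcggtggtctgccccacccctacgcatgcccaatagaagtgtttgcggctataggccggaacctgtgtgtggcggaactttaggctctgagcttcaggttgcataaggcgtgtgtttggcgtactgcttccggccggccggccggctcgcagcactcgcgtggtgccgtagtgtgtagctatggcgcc

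In promoter windows of this kind, 16 of the 50 assembly factors with an entry held CACGTG, which is 32% of them, against 12.2% of the genes tested between genotypes and 8.09% of all genes. By role it was 8 of 23 small-subunit factors, 7 of 22 large-subunit factors and 1 of 5 of the others. The match mostly sat at or after the start: 12 of 17 matches in the members, or 70.6%, reached past it, against 17.6% in the genes tested. Of the sequences printed, this holds for Ltv1, Rpf2 and Mybbp1a, while the match of Utp18 lies upstream of the start. Seen from the second annotated start of Rpf2 the same match lies upstream, and the 17 matches count it once from each start. No entry was found for Utp6, Bop1, Rrs1, Rrp12 and Fcf1. A match is a feature of the letters only. Binding was not measured.

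The libraries held 1900319 and 1768647 UMIs in Mat KO cells, against 3183279 and 3253608 in WT cells. A UMI (unique molecular identifier) marks 1 cDNA copy, tagged near its 3′ end, so counts were not divided by gene length. All 20 genes of the long-term HSC list (such as Procr, Hlf and Mecom) were detected in each library, with a summed level of 2764 and 3596 CPM in Mat KO libraries, against 4107 and 3153 CPM in WT libraries. Granulocyte and monocyte markers summed to 36547 and 5773 CPM in Mat KO libraries, against 7355 and 3555 CPM in WT libraries. Erythroid markers were highest in WT replicate 2, with 85.2 and 41.3 CPM in Mat KO libraries, against 96.4 and 762 CPM in WT libraries. B-lymphoid markers summed to 1378 and 1378 CPM in Mat KO libraries, against 1226 and 585 CPM in WT libraries. T and NK markers summed to 262 and 102 CPM in Mat KO libraries, against 23.9 and 92.5 CPM in WT libraries. Cells with transcripts of a mature lineage above set limits numbered 17 and 8 in Mat KO libraries, against 7 and 9 in WT libraries, and the remaining cells are called lineage-low. Those cells with mature-lineage transcripts held 50.8% and 25.0% of the assembly-factor UMIs in Mat KO libraries, against 18.8% and 35.6% in WT libraries. The 4 libraries used the same 48 barcodes, 44 of which marked a kept cell in all 4.

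Over all kept cells, assembly-factor transcripts took a slightly smaller share of UMIs in the Mat KO libraries, a difference that was given no test. The 55 genes together had 0.416% and 0.397% of UMIs in Mat KO libraries, against 0.453% and 0.554% in WT libraries. The groups did not overlap, with WT replicate 2 well above the other libraries. Per cell the median share was 0.382% and 0.346% in Mat KO libraries, against 0.399% and 0.432% in WT libraries. Cells of 1 library ranged widely, for example from 0.0279% to 1.27% in Mat KO replicate 1. A cell had a UMI of a median of 20 and 19 of the 55 genes in Mat KO libraries, against 25 and 29.5 in WT libraries. After each cell was thinned to 8800 UMIs the medians were 14 and 14 in Mat KO libraries, against 15.5 and 19 in WT libraries. In lineage-low cells the 55 genes summed to 4014 and 4300 CPM in Mat KO libraries, against 4434 and 4757 CPM in WT libraries, again without overlap. By role, the large-subunit sums stayed apart there (1774 and 1798 CPM in Mat KO libraries, against 2015 and 2089 CPM in WT libraries). The small-subunit sums overlapped (1663 and 1633 CPM, against 1568 and 1896 CPM), and so did those of the other roles (577 and 869 CPM, against 851 and 772 CPM). In summed counts, fewer cells of a type and less RNA per cell cannot be told apart.

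Gene by gene, the Mat KO level lay below the WT level for most of the set, but no single member passed the test. Of the 55 members, 44 had a log2 fold change (Mat KO minus WT) below 0, against 50.6% of the 10663 genes tested. The median log2 fold change was -0.34 for the members and -0.01 for all genes tested. It was -0.37 for the small-subunit factors, 18 of 25 of them below 0, and -0.30 for the large-subunit factors, 22 of 24 of them below 0. Of the 55, 22 had both Mat KO libraries below both WT libraries, against 21.3% of all genes, and 3 (Utp18, Utp20 and Npm3) had both above, against 17.8% of all genes. With edgeR (quasi-likelihood, p-values adjusted over all genes by Benjamini-Hochberg, threshold 0.05), 0 of 55 members were called. The same test called 0.075% of all genes, all 8 of them higher in Mat KO. The other 11 members lay above 0, against 49.4% of all genes. At an unadjusted p under 0.05 there were 2 members, Mphosph10 and Utp18, against 7.82% of all genes. DESeq2 called 1 of the 55 members, Mphosph10, and 120 of the 10663 genes tested.

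The shift was smaller in lineage-low cells, where 34 of 54 tested members were below 0, with a median log2 fold change of -0.14. By role, 16 of 25 small-subunit factors (median -0.15) and 15 of 24 large-subunit factors (median -0.16) were below 0 there. Leaving out 1 library moved the median of the members between -0.45 and -0.16. It was -0.16 without WT replicate 2, with 36 of 55 below 0. The part of mature-lineage transcripts in the all-cell value was not tested further.

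**Figure D1:**
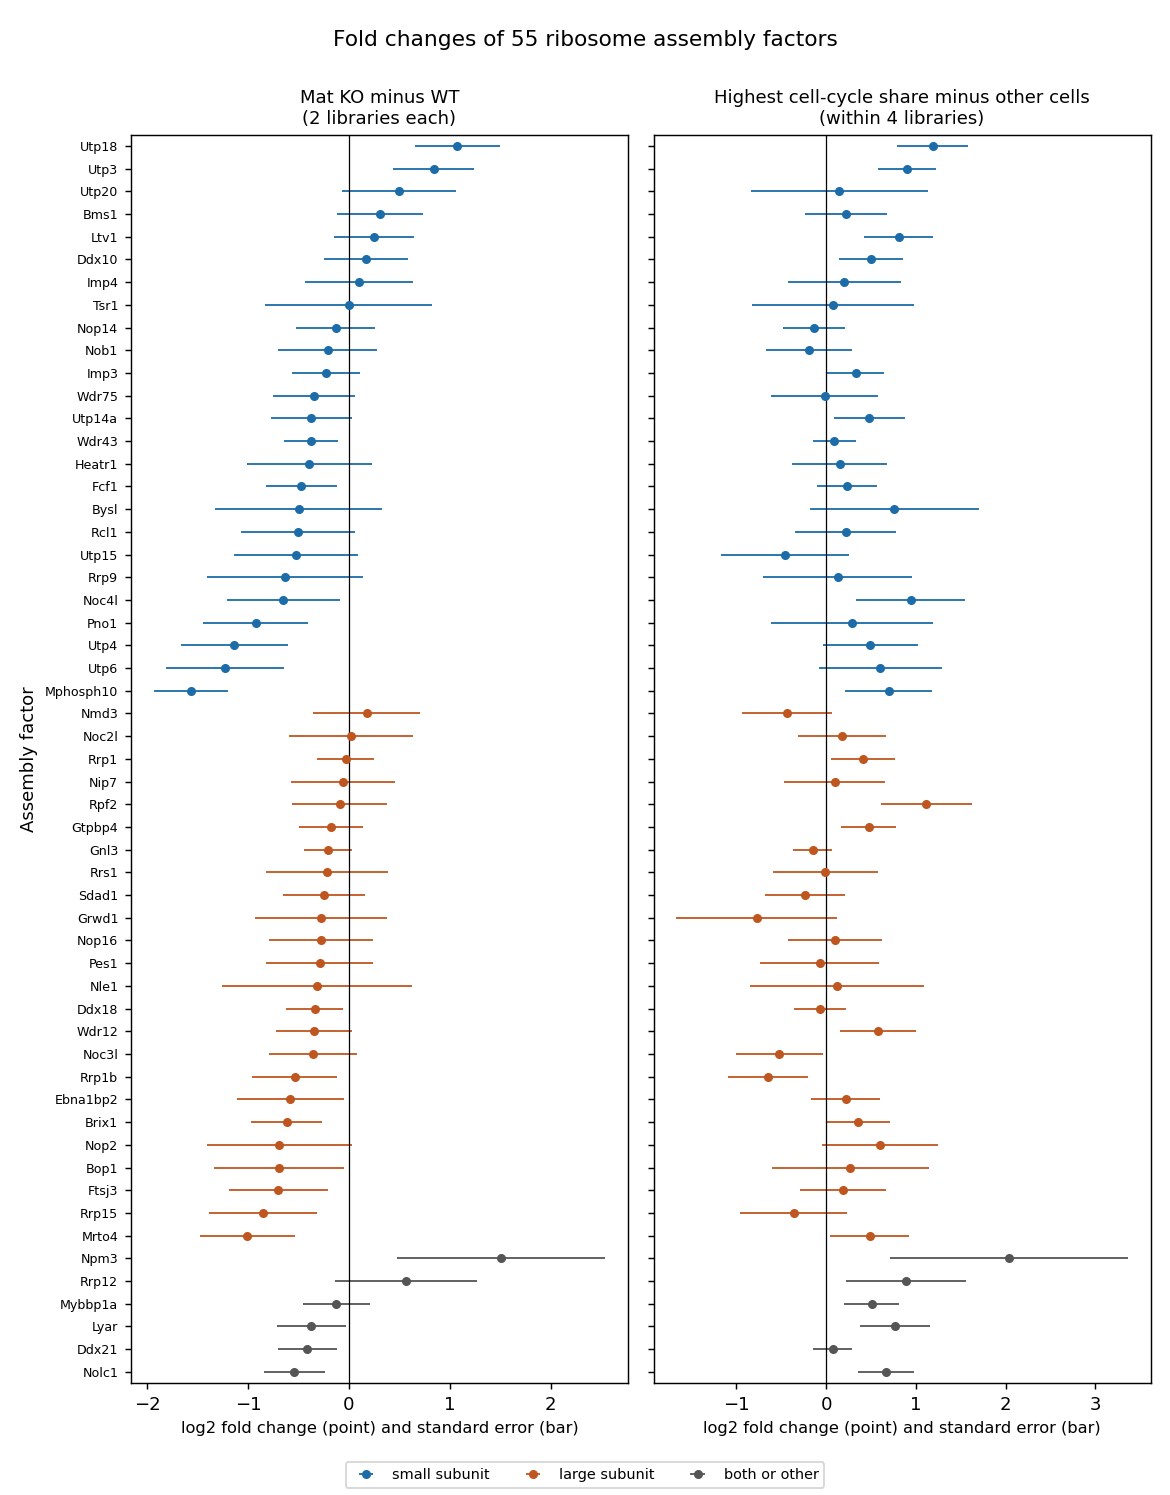
Log2 fold change (points) with its standard error (bars) of each of the 55 assembly factors, by role. The left panel gives Mat KO minus WT (2 libraries each), where 44 points lie below 0. The right panel gives the 25% of cells with the highest cell-cycle share minus the other cells of the same library (4 libraries), where 41 points lie above 0.

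Among small-subunit factors, Mphosph10, a core protein of the SSU processome that binds Imp3 and Imp4, had 54.7 and 40.7 CPM in Mat KO libraries, against 161 and 128 CPM in WT libraries. The groups lay far apart, with neither Mat KO library near a WT library. The log2 fold change was -1.57 (standard error 0.37) with an adjusted p of 0.23 by edgeR, and over 13 alternative settings the adjusted p ran between 0.014 and 0.607. It passed 0.05 without a gene filter (0.014) and with DESeq2 (0.023). In lineage-low cells the log2 fold change was -1.26.

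Utp18, a WD-repeat protein of the SSU processome, had 78.4 and 96.1 CPM in Mat KO libraries, against 35.8 and 48.9 CPM in WT libraries. Both Mat KO libraries lay above both WT libraries, the opposite order to Mphosph10. The log2 fold change was 1.07 (standard error 0.42; edgeR adjusted p = 0.584), and the adjusted p stayed above 0.05 in all 13 alternatives. Utp3, another processome component, had 190.5 and 96.1 CPM in Mat KO libraries, against 66.3 and 96.8 CPM in WT libraries, which overlap. Utp20, a large scaffold of the processome, had 31.0 and 44.7 CPM in Mat KO libraries, against 25.8 and 29.2 CPM in WT libraries (log2 fold change 0.50, edgeR adjusted p = 0.893), a narrow gap.

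Further processome subunits lay on the side of Mphosph10. Utp4, of the subcomplex that binds the precursor first, had 32.1 and 18.1 CPM in Mat KO libraries, against 50.9 and 61.8 CPM in WT libraries (log2 fold change -1.14, edgeR adjusted p = 0.654). Utp6 had 15.3 and 22.6 CPM in Mat KO libraries, against 50.6 and 40.6 CPM in WT libraries (log2 fold change -1.23, edgeR adjusted p = 0.659). Groups did not overlap for either gene, yet neither passed the test. The same separation held for Pno1, the partner of the endonuclease Nob1, which had 31.0 and 26.6 CPM in Mat KO libraries, against 40.8 and 71.0 CPM in WT libraries (log2 fold change -0.93). Wdr43, of the same subcomplex as Utp4, had 215 and 279 CPM in Mat KO libraries, against 315 and 341 CPM in WT libraries (log2 fold change -0.37). Fcf1, a nuclease-like processome protein, had 112 and 72.4 CPM in Mat KO libraries, against 122 and 138 CPM in WT libraries (log2 fold change -0.47). These gaps were smaller than those of Mphosph10 and Utp6. At these levels the counts are small, 29 and 40 UMIs for Utp6 in Mat KO libraries, against 161 and 132 in WT libraries. The 17 remaining small-subunit factors (Nop14, Wdr75, Utp14a, Utp15, Utp20, Rrp9, Bysl, Heatr1, Ddx10, Noc4l, Nob1, Imp3, Imp4, Tsr1, Ltv1, Rcl1 and Bms1) had log2 fold changes between -0.65 and 0.50, with 12 below 0 and an edgeR adjusted p of 0.836 or more. Imp3 and Imp4, the partners of Mphosph10, did not share its separation: Imp3 had 121 and 83.7 CPM in Mat KO libraries, against 116 and 128 CPM in WT libraries, and Imp4 had 42.6 and 44.1 CPM in Mat KO libraries, against 26.4 and 56.2 CPM in WT libraries.

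**Figure D2:**
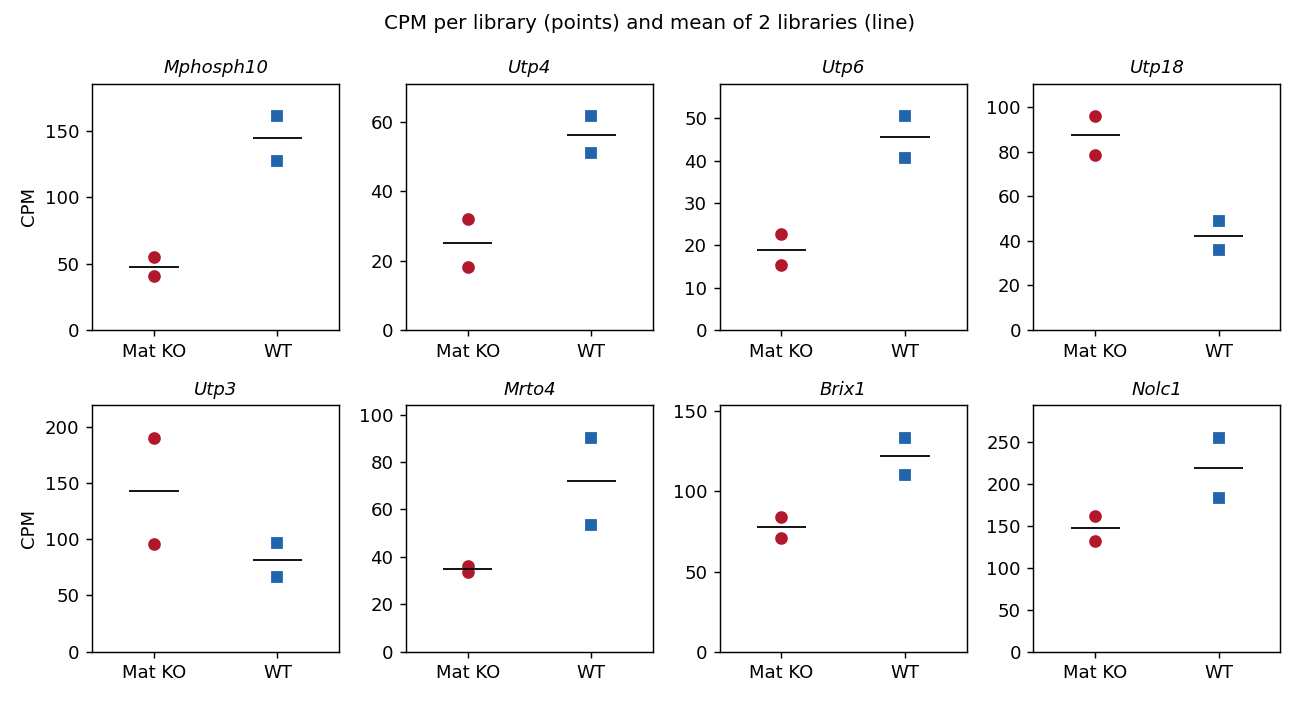
CPM of 8 assembly factors in each library (points), Mat KO left and WT right, with the mean of the 2 libraries (line). Mphosph10, Utp4, Utp6, Mrto4, Brix1 and Nolc1 have both Mat KO libraries below both WT libraries, Utp18 has both above, and the Utp3 groups overlap.

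Of the large-subunit factors 22 of 24 were below 0 over all kept cells, against 15 of 24 in lineage-low cells. The 2 above 0 over all kept cells, Nmd3 (the export adaptor of the large subunit) and Noc2l, had log2 fold changes of 0.18 and 0.02. Mrto4, a nuclear relative of a stalk protein of the large subunit, had 33.7 and 36.2 CPM in Mat KO libraries, against 53.4 and 90.4 CPM in WT libraries. The log2 fold change was -1.01 (standard error 0.47; edgeR adjusted p = 0.654). Brix1 had 71.0 and 84.2 CPM in Mat KO libraries, against 110 and 134 CPM in WT libraries (log2 fold change -0.62, edgeR adjusted p = 0.723). Both genes had their Mat KO libraries below their WT libraries. Rrp15 had 28.4 and 22.1 CPM in Mat KO libraries, against 46.8 and 46.4 CPM in WT libraries (log2 fold change -0.85). Ftsj3, an RNA methyltransferase, had 65.8 and 26.0 CPM in Mat KO libraries, against 74.5 and 77.5 CPM in WT libraries (log2 fold change -0.70). Bop1, which forms a complex with Pes1 and Wdr12, had 25.3 and 15.3 CPM in Mat KO libraries, against 37.7 and 29.2 CPM in WT libraries (log2 fold change -0.69). Pes1 and Wdr12 lay on the same side with no overlap, with log2 fold changes of -0.29 and -0.35. Rrp1b and the helicase Ddx18, with -0.54 and -0.34, showed the same order of libraries. Ebna1bp2 had 126 and 40.1 CPM in Mat KO libraries, against 77.9 and 175 CPM in WT libraries, so its groups overlap. Gnl3 (nucleostemin), a nucleolar GTPase known from stem cells, had 377 and 327 CPM in Mat KO libraries, against 403 and 428 CPM in WT libraries, a narrow gap with a log2 fold change of -0.21 (edgeR adjusted p = 0.894). Outside the 8 large-subunit factors of smallest p, the 16 others had log2 fold changes between -0.69 and 0.18 and an edgeR adjusted p of 0.873 or more.

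Of the 6 factors of both or other roles, Nolc1, a chaperone of small nucleolar ribonucleoproteins, had 132 and 162 CPM in Mat KO libraries, against 183 and 255 CPM in WT libraries (log2 fold change -0.54, edgeR adjusted p = 0.72). Ddx21, a nucleolar RNA helicase, had 220 and 359 CPM in Mat KO libraries, against 387 and 402 CPM in WT libraries (log2 fold change -0.41). Both genes lay lower in each Mat KO library. Npm3, a nucleoplasmin-family chaperone, had 25 and 32 UMIs in Mat KO libraries, against 14 and 22 in WT libraries. In Mat KO replicate 2 a single cell gave 81.2% of them, and in WT replicate 1 a single cell gave 85.7%. Rrp12, Mybbp1a and Lyar had overlapping groups, with log2 fold changes of 0.56, -0.12 and -0.37. Over all members the leading cell gave a median of 24.4% and 23.1% of a gene's UMIs in Mat KO libraries, against 20.8% and 18.4% in WT libraries.

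Of 102 tested assembly factors outside the set, 60 were below 0, against 50.6% of all genes. Their median log2 fold change was -0.12, and neither edgeR nor DESeq2 called any of them. In lineage-low cells 47 of 100 were below 0 and the median turned to 0.03. At an unadjusted p under 0.05 edgeR gave 3, against 7.82% of all genes. Urb1, a large-subunit factor in yeast, had 2 and 7 UMIs in Mat KO libraries, against 100 and 80 in WT libraries (log2 fold change -3.43, edgeR adjusted p = 0.404). Utp11 (row Utp11l), a processome protein, had 49.99 and 77.5 CPM in Mat KO libraries, against 138 and 101 CPM in WT libraries (log2 fold change -0.88). Exosc1 and Exosc3, subunits of the RNA exosome that trims rRNA precursors, had log2 fold changes of -1.33 and -1.10. For all 4 genes both Mat KO libraries lay below both WT libraries. In the MYC network (Myc, Max and their partners) 7 of 11 tested genes were above 0, against 49.4% of all genes. In it 0 were called by edgeR or DESeq2, with 1 at an unadjusted p under 0.05. That gene, Mxd1, a MAX partner that opposes MYC, had 176 and 89.3 CPM in Mat KO libraries, against 66.6 and 39.3 CPM in WT libraries (log2 fold change 1.35, edgeR adjusted p = 0.497), but -0.06 in lineage-low cells. Mga, another MAX partner, had 121 and 120 CPM in Mat KO libraries, against 188 and 177 CPM in WT libraries (log2 fold change -0.56, edgeR adjusted p = 0.701). Myc itself had 69.5 and 52.0 CPM in Mat KO libraries, against 62.2 and 78.1 CPM in WT libraries, which overlap.

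Small- and large-subunit factors had similar summed levels. Small-subunit factors summed to 1681 and 1581 CPM in Mat KO libraries, against 1681 and 2188 CPM in WT libraries. Large-subunit factors summed to 1794 and 1657 CPM in Mat KO libraries, against 1997 and 2379 CPM in WT libraries. So the large-subunit sum was lower in both Mat KO libraries than in either WT library, and the small-subunit sum overlapped. The small-to-large ratio was 0.937 and 0.954 in Mat KO libraries, against 0.842 and 0.920 in WT libraries, which do not overlap. After thinning it was 0.904 and 0.921 in Mat KO libraries, against 0.812 and 0.943 in WT libraries, which do. A sum over members was given no test.

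S phase and G2/M transcripts were counted because these factors are known to be made more in growing cells. In all cells the S phase gene Mcm2 had 35.3 and 15.8 CPM in Mat KO libraries, against 89.5 and 102 CPM in WT libraries, and Pcna 135 and 137 CPM in Mat KO libraries, against 205 and 242 CPM in WT libraries. Neither passed the edgeR test between genotypes (adjusted p = 0.304 and 0.599). Mcm2 passed in 4 of 13 alternatives, among them without a gene filter (0.0191), with DESeq2 and without Mat KO replicate 1, and its adjusted p ran up to 0.587. The G2/M genes Mki67 and Top2a had log2 fold changes of 0.48 and 0.02, which were -0.84 and -1.40 in lineage-low cells. Of the S phase list 38 of 45 genes were below 0, with a median log2 fold change of -0.64, and their part in the assembly-factor values was not tested in the all-cell comparison.

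The comparison was therefore repeated in the 75% of each library's cells with the lower share of UMIs in these lists. This did not level the lists between genotypes. In these cells 30 of 36 tested S phase genes were below 0, with a median log2 fold change of -1.02. Of the G2/M genes 31 of 44 were, with a median of -0.38. Their part in the member values of these cells was not tested. Of 54 tested members, 41 were below 0 (51.3% of 9758 genes tested), with a median log2 fold change of -0.36, against -0.02 for all genes. The median was -0.43 for the large-subunit factors (20 of 24 below 0) and -0.20 for the small-subunit factors (17 of 25 below 0). Of the 54, 19 had both Mat KO libraries below both WT libraries (22.2% of all genes) and 5 had both above (16.5% of all genes). The 13 others lay above 0 (48.7% of all genes). Neither edgeR nor DESeq2 called a member, 2 had an unadjusted edgeR p under 0.05 (7.11% of all genes), and edgeR called 0.0717% of all genes. Npm3 was not tested for low counts. In lineage-low cells of this class 34 of 54 were below 0, with a median of -0.20, and without WT replicate 2 34 of 55 were, with a median of -0.19. With 1 boundary over all cells in place of 1 per library, 34 of 54 were below 0, with a median of -0.18.

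Mphosph10 and Utp18 kept their opposite directions in these cells. Mphosph10 had 15.8 and 42.4 CPM in Mat KO libraries, against 124 and 136 CPM in WT libraries (log2 fold change -2.11, edgeR adjusted p = 0.384). Over 17 alternatives its adjusted p ran between 0.00636 and 0.828. The lowest value came without Mat KO replicate 2, where the single Mat KO library is assumed to vary like the WT libraries. Utp18 had a log2 fold change of 1.32 (standard error 0.60; edgeR adjusted p = 0.682). Bop1 had 7.41 and 13.6 CPM in Mat KO libraries, against 53.9 and 27.6 CPM in WT libraries (log2 fold change -1.90, edgeR adjusted p = 0.712).

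Within a library, the 25% of cells with the highest cell-cycle share (11 and 12 cells in Mat KO libraries, 12 and 12 in WT libraries) was then set against its other cells. Assembly factors mostly had higher levels in these cells, without a member passing the test. The high-share cells were also deeper, with a median of 61245 and 33147 UMIs in Mat KO libraries and 81644 and 73374 in WT libraries, against 26203, 23625, 42119 and 48670 UMIs in the other cells of the same libraries. In Mat KO libraries 9 of 11 and 3 of 12 of them, and in WT libraries 5 of 12 and 3 of 12, carried mature-lineage transcripts. Their median share of UMIs in the HSC list was 0.0312% and 0.271% in Mat KO libraries and 0.170% and 0.165% in WT libraries, against 0.436%, 0.410%, 0.472% and 0.435% in the other cells. The boundary was set within each library, so the classes differ between libraries. The median cell-cycle share of the high-share cells was 2.86% and 0.550% of UMIs in Mat KO libraries and 2.56% and 2.38% in WT libraries, against 0.446%, 0.332%, 0.390% and 0.478% in the other cells. In Mat KO replicate 2 the high-share class began at 0.467%, under the median of the other cells of WT replicate 2, whose other cells reached 1.59%. With 1 boundary over all cells in place of 1 per library, 46 of 55 members were above 0 in the high-share cells, with a median log2 fold change of 0.35. The class is a range of a score and not a cell type: 7 cells of Mat KO replicate 2 and 2 of WT replicate 2 lay within 10% of the boundary.

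Of the 55 members 41 had a log2 fold change (high-share minus other cells) above 0, against 45.7% of 8600 genes tested, and the median was 0.22 for the members and -0.09 for all genes. Above 0 were 21 of 25 small-subunit factors (median 0.23), 14 of 24 large-subunit factors (median 0.11) and 6 of 6 of the others (median 0.72). In all 4 libraries 9 members were higher, or 16.4%, close to the 14.4% of all genes. These were Utp3, Utp18, Ddx10, Imp3, Ltv1, Mrto4, Rrp12, Mybbp1a and Nolc1. By role they were 5 of 25 small-subunit factors, 1 of 24 large-subunit factors and 3 of 6 of the others. Higher in no library were 0 members, against 14.7% of all genes. edgeR called 0 members and 5.99% of all genes, 4.02% as higher and 1.97% as lower. At an unadjusted p under 0.05 there were 4 members (Utp18, Utp3, Rpf2 and Nolc1), against 19.5% of all genes. DESeq2 called 1 of the 55 members, Utp18, and 1093 of the 8600 genes tested. The median of the members was 0.11 without Mat KO replicate 1, 0.15 without WT replicate 2, 0.36 without Mat KO replicate 2 and 0.38 without WT replicate 1. In lineage-low cells 29 of 53 members were above 0, with a median of 0.10, against -0.12 for all genes. There the large-subunit median turned to -0.16, with 10 of 23 above 0, and the small-subunit median was 0.16, with 15 of 25 above 0. Over all kept cells the large-subunit median was also below 0 without Mat KO replicate 1 (-0.07) and without WT replicate 2 (-0.02).

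Utp18, whose promoter is printed above, had 104 and 156 CPM in high-share cells of Mat KO libraries and 59.3 and 84.0 CPM in those of WT libraries, against 59.3, 71.3, 21.7 and 32.2 CPM in the other cells of the same libraries. It was higher in 4 of 4 libraries, with a log2 fold change of 1.19 (standard error 0.39; edgeR adjusted p = 0.0985, range over 17 alternatives 0.0303 to 0.934). Utp3 had 294 and 125 CPM in high-share cells of Mat KO libraries and 81.8 and 153 CPM in those of WT libraries, against 112, 84.1, 56.9 and 70.2 CPM in the other cells (log2 fold change 0.90, edgeR adjusted p = 0.129). Ltv1, which acts late in small-subunit maturation, had a log2 fold change of 0.81 and was higher in 4 of 4 libraries (edgeR adjusted p = 0.264). Mphosph10 was higher in 2 of 4 libraries, with 106 and 36.5 CPM in high-share cells of Mat KO libraries and 223 and 109 CPM in those of WT libraries, against 15.8, 42.4, 124 and 136 CPM in the other cells. The direction of Noc4l, Utp14a and Imp3, each above 0 over all cells, turned in lineage-low cells. Noc4l had 45.1 and 13.5 CPM in high-share cells of Mat KO libraries and 66.0 and 94.5 CPM in those of WT libraries, against 25.9, 23.2, 20.1 and 29.0 CPM in the other cells. The helicase Ddx10 was higher in 4 of 4 libraries, with a log2 fold change of 0.50. The 17 remaining small-subunit factors had log2 fold changes between -0.46 and 0.76, 13 of them above 0.

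Large-subunit factors were mixed. Rpf2, which helps place the 5S particle on the large subunit with Rrs1, had 45.1 and 142 CPM in high-share cells of Mat KO libraries and 61.0 and 99.3 CPM in those of WT libraries, against 46.3, 20.8, 29.7 and 56.2 CPM in the other cells. It was higher in 3 of 4 libraries (log2 fold change 1.12, edgeR adjusted p = 0.244), and 1 cell held 58% of its UMIs in Mat KO replicate 2. Gtpbp4, a nucleolar GTPase, had 177 and 235 CPM in high-share cells of Mat KO libraries and 147 and 182 CPM in those of WT libraries, against 83.4, 131, 138 and 191 CPM in the other cells (log2 fold change 0.48). Wdr12, Rrp1, Mrto4 and Brix1 had log2 fold changes between 0.35 and 0.58, and Rrp1b and Noc3l of -0.64 and -0.52. The 16 remaining large-subunit factors had values between -0.78 and 0.60, 8 of them above 0. Among the other roles, Nolc1 had 219 and 175 CPM in high-share cells of Mat KO libraries and 241 and 274 CPM in those of WT libraries, against 65.8, 156, 148 and 246 CPM in the other cells. That is higher in 4 of 4 libraries, with a log2 fold change of 0.67 (edgeR adjusted p = 0.251), and -0.07 in lineage-low cells. Lyar, a nucleolar zinc-finger protein, had 238 and 57.7 CPM in high-share cells of Mat KO libraries and 212 and 240 CPM in those of WT libraries, against 73.2, 100, 99.2 and 129 CPM in the other cells (log2 fold change 0.77, edgeR adjusted p = 0.296). It was higher in 3 of 4 libraries, and Mybbp1a, a nucleolar repressor of transcription, in 4 of 4 (log2 fold change 0.51, edgeR adjusted p = 0.397).

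**Figure D3:**
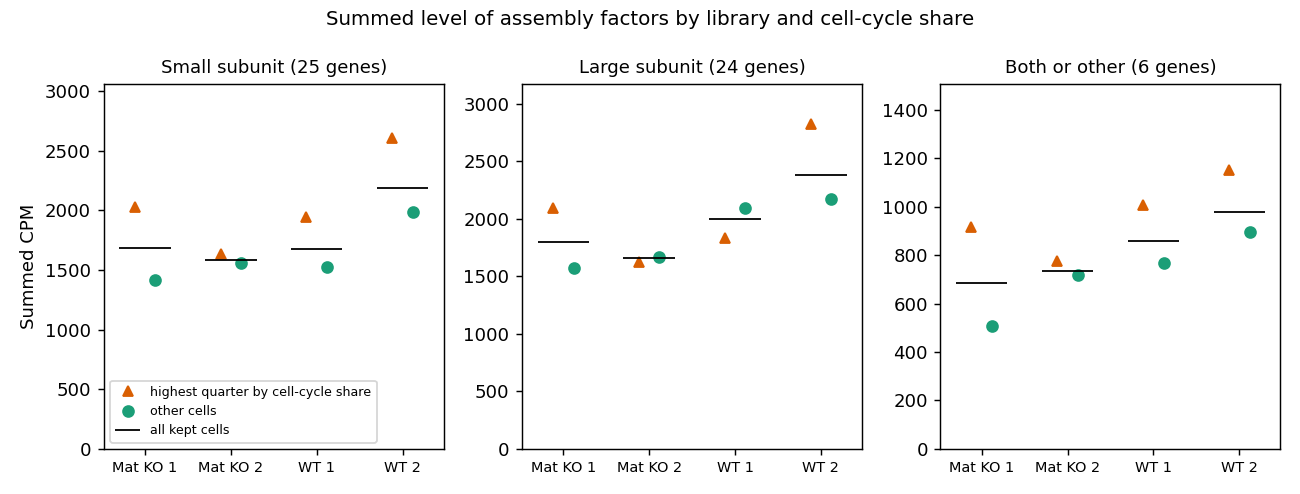
Summed CPM of small-subunit, large-subunit and other factors in each library, for the 25% of cells with the highest cell-cycle share (triangles), the other cells (circles) and all kept cells (lines). Triangles lie above circles in all 4 libraries for the small-subunit and other factors, and in Mat KO replicate 1 and WT replicate 2 for the large-subunit factors.

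In sums, small-subunit factors had 2026 and 1635 CPM in high-share cells of Mat KO libraries and 1941 and 2604 CPM in those of WT libraries, against 1419, 1558, 1524 and 1991 CPM in the other cells. They were higher in 4 of 4 libraries, and large-subunit factors in 2 of 4. The small-to-large ratio was 0.969 and 1.01 in high-share cells of Mat KO libraries and 1.06 and 0.923 in those of WT libraries, against 0.904, 0.932, 0.727 and 0.918 in the other cells. With cells chosen by S phase genes alone it was 0.983 and 0.992 in high-share cells of Mat KO libraries and 1.12 and 0.965 in those of WT libraries, against 0.900, 0.936, 0.707 and 0.878 in the other cells.

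With the 25% of cells chosen by S phase genes alone, 42 of 54 tested members were above 0, with a median log2 fold change of 0.32. edgeR called 1 member, Nolc1, which is 1.85% of them, against 5.29% of all genes. It had 226 and 204 CPM in high-S cells of Mat KO libraries and 285 and 375 CPM in those of WT libraries, against 66.2, 142, 138 and 176 CPM in the other cells. It was higher in 4 of 4 libraries, with a log2 fold change of 1.11 (standard error 0.28, edgeR adjusted p = 0.0348). Nolc1 passed in this 1 of 17 alternatives of the cell-cycle contrast, over which its adjusted p ran up to 0.977. Utp3 had a log2 fold change of 1.19 with cells chosen by S phase genes alone (edgeR adjusted p = 0.0578). In the highest 10% of cells by both lists, 4 or 5 cells a library, 12 of 53 members were above 0, against 33.6% of 8213 genes tested. The median was -0.77 for the members and -0.41 for all genes. Members and all genes thus both lay lower there than in the main contrast.

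Of 100 tested assembly factors outside the set 57 were above 0, against 45.7% of all genes. edgeR called 3 of them, against 5.99% of all genes, so calls were no more common here than over all genes. Nol7, a nucleolar protein of the SSU processome, rose in high-share cells, with 417 and 521 CPM in Mat KO libraries and 365 and 488 CPM in WT libraries, against 220, 230, 257 and 228 CPM in the other cells (log2 fold change 0.92, edgeR adjusted p = 0.0203). Ncl (nucleolin), an abundant nucleolar protein of early rRNA steps, rose by 0.50 on the log2 scale (adjusted p = 0.0205), with 2263 and 1710 CPM in Mat KO and 2400 and 3199 CPM in WT high-share cells, against 1523, 1465, 1668 and 2009 CPM in the other cells. Both were higher in 4 of 4 libraries. Nop53 (row Gltscr2), which docks the exosome's helicase on the large subunit, fell, with 395 and 529 CPM in Mat KO and 631 and 772 CPM in WT high-share cells, against 842, 1026, 972 and 962 CPM in the other cells (log2 fold change -0.75, adjusted p = 0.0206). Exosc8, an exosome subunit, had a log2 fold change of 1.22 and an edgeR adjusted p of 0.0526. In lineage-low cells the log2 fold changes of Nol7, Ncl and Nop53 were 0.42, 0.25 and -0.59, with adjusted p-values of 0.724, 0.571 and 0.0897. With cells thinned to 8800 UMIs they were 0.37, 0.45 and -0.71, with edgeR adjusted p-values of 0.398, 0.0433 and 0.0374, so Nol7 was not called in that setting. Thinning also left out 5 and 7 cells of Mat KO libraries and 2 and 4 of WT libraries, and the classes were formed anew. The part of depth alone was not tested. Leaving out 1 library put the adjusted p of Nol7 at 0.0592 without Mat KO replicate 1, 0.0965 without Mat KO replicate 2 and 0.0931 without WT replicate 2. That of Ncl was 0.107 without WT replicate 1 and 0.156 without WT replicate 2, and that of Nop53 was 0.0721 without Mat KO replicate 1, 0.0992 without Mat KO replicate 2 and 0.0727 without WT replicate 1.

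In the MYC network, Mxd3, a MAX partner known from S phase, rose in high-share cells, with 35.3 and 34.6 CPM in Mat KO and 9.19 and 28.7 CPM in WT high-share cells, against 1.85, 0, 0 and 0.906 CPM in the other cells (log2 fold change 5.35, edgeR adjusted p = 0.0189). Counts of 0 here allow up to 2.40 CPM in Mat KO replicate 2 and 1.51 CPM in WT replicate 1, counting error only. The adjusted p was 0.0713 without Mat KO replicate 1, 0.0844 without Mat KO replicate 2, 0.0524 without WT replicate 1 and 0.0659 without WT replicate 2. Of 10 tested genes of the network 8 were below 0, against 54.3% of all genes. Myc had 37.8 and 76.9 CPM in Mat KO and 35.1 and 59.2 CPM in WT high-share cells, against 93.6, 41.6, 78.6 and 87.0 CPM in the other cells, so it was higher in 1 of 4 libraries. Mga, with a log2 fold change of -0.61, was lower in high-share cells of 4 of 4 libraries (edgeR adjusted p = 0.286). The log2 fold changes of Mki67 (4.21), Top2a (4.48), Pcna (1.42) and Mcm2 (1.35) describe the classes, since these genes were used to form them.

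Whether the cell-cycle contrast differed by genotype was tested by their interaction. Neither edgeR nor DESeq2 called a member, 3 had an unadjusted edgeR p under 0.05 (3.67% of all genes), and edgeR called 0.00975% of 10259 genes. Below 0 were 25 of 55 members and 49.4% of all genes. The 3 were Utp20, Pno1 and Imp4, small-subunit factors with log2 differences of -3.89, -3.36 and -2.49 (Mat KO contrast minus WT contrast, edgeR adjusted p of 1 each). Pno1 had 32.9 and 0 CPM in high-share cells of Mat KO libraries, against 29.6 and 37.6 CPM in their other cells. In WT libraries it had 84.4 and 102 CPM in high-share cells, against 14.6 and 56.2 CPM in the other cells. The 0 allows up to 5.77 CPM. Without Mat KO replicate 1 the adjusted p of Pno1 was 0.0226, in a fit whose only Mat KO library is the one with the count of 0 and is assumed to vary like the WT libraries. Imp4, the partner of Mphosph10, had 28.0 and 23.1 CPM in high-share cells of Mat KO libraries, against 53.7 and 52.9 CPM in their other cells, and 41.8 and 100 CPM in high-share cells of WT libraries, against 17.1 and 35.3 CPM in their other cells. The median over the members was 0.05, against 0.02 for all genes, but its sign was not stable. With a replicate left out it ran between -0.28 and 0.21, and in lineage-low cells it was -0.27, against -0.02 for all genes. Further settings are given in the closing section.

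Cell by cell, the share of UMIs in the 55 genes was weakly related to the share in S phase genes. Pearson's r was 0.25 and 0.13 in Mat KO libraries (44 and 48 cells) and 0.26 and 0.45 in WT libraries (48 and 48 cells). By rank (Spearman's rho) it was 0.11 and 0.38 in Mat KO libraries and 0.14 and 0.49 in WT libraries, so the order of the Mat KO libraries turned. After thinning to 8800 UMIs r was 0.17 and 0.17 in Mat KO libraries and 0.37 and 0.36 in WT libraries. The thinned rho was -0.01 and 0.26 in Mat KO libraries and 0.29 and 0.37 in WT libraries. With G2/M genes r was -0.01 and -0.12 in Mat KO libraries and 0.06 and 0.25 in WT libraries. Between small- and large-subunit shares r was 0.63 and 0.46 in Mat KO libraries and 0.32 and 0.52 in WT libraries, and after thinning to 8800 UMIs it was 0.58 and 0.42 in Mat KO libraries and 0.54 and 0.45 in WT libraries. In lineage-low cells r between them was -0.01 and 0.40 in Mat KO libraries and 0.24 and 0.15 in WT libraries, while r between the 55 genes and S phase genes was 0.43 and 0.34 in Mat KO libraries and 0.11 and 0.26 in WT libraries. Cells of a library share its preparation, and depth moved with the member share too, with r to total UMIs of 0.16 and 0.14 in Mat KO libraries and 0.08 and 0.49 in WT libraries. These correlations describe cells and carry no test.

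**Figure D4:**
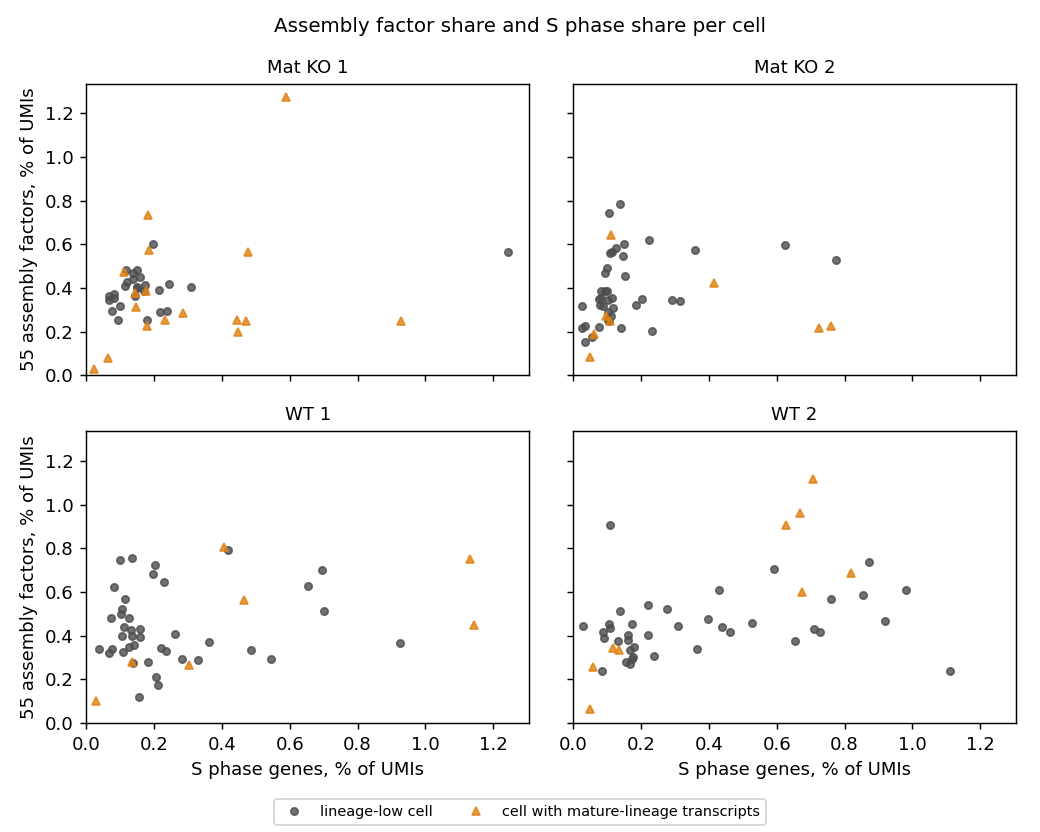
Each point is 1 cell: the share of its UMIs in S phase genes (horizontal, %) and in the 55 assembly factors (vertical, %), by library. Circles are lineage-low cells and triangles are cells with mature-lineage transcripts. Most cells sit at low S phase shares, and Pearson's r is between 0.13 and 0.45 in the 4 libraries.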

How the data were processed

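Single HSC were profiled with a modified STRT-seq method, whose oligo-dT primers carry barcodes and UMIs, per the labels' protocols. The authors deposited raw UMI counts per gene and barcode, not normalized. TopHat2 2.0.12 and HTSeq are named in the submitters' processing notes with build mm10; the strand counted is not stated there or in the labels, and 9 members have an opposite-strand gene within 1000 bases of their 3′ end. Mrto4, Gtpbp4 and Npm3 have named pseudogenes that could share their reads. The 95 of 24506 rows that name spike-ins or marker constructs stayed out of library sizes and tests; they held 51.0% and 53.2% of the kept cells' UMIs in Mat KO libraries and 45.7% and 41.8% in WT libraries.

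Cells needed at least 1000 detected genes. Doublets were not called, as each cell had been picked by hand. Cells are not replicates, so counts were summed per library, or per library and class of cells, and compared with edgeR 4.0.16 in R 4.3.3 (TMM, filterByExpr, quasi-likelihood test, Benjamini-Hochberg over all genes at 0.05). The 2 classes of a library were compared with library as a block. DESeq2 1.42.0 was an alternative. Standard errors are the log2 fold change over the square root of F. Nothing in the labels says that libraries came from separate animals, so p-values measure the spread between libraries, which may be technical. Cell-cycle classes took the highest 25% of cells per library by share of UMIs in fixed S phase and G2/M lists, which hold no member. Limits for mature-lineage transcripts (2% of UMIs for granulocytes and monocytes, 0.05% for T and NK cells, 0.1% for B, erythroid and mast cells) were chosen after the distributions were seen. Limits allowed by a count of 0 are 3 counts per sum and cover counting error only. Fits were tested on simulated counts with known log2 fold changes of 2 or 3, up or down. At 2, the genotype test recovered 38 of 93 changed genes and the cell-cycle test 34 of 82. At 3, they recovered 61 of 94 and 60 of 75. Of the unchanged genes they called 9 of 9996 and 3 of 8497. Changes of these sizes were thus often missed, so a member that was not called may still differ.

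The members and gene lists were chosen with earlier results of these data known. In each test the text names the 8 small-subunit, 8 large-subunit and 3 other members of smallest p, 4 further assembly factors and 2 MYC network genes (3 members in the lower-share and interaction tests), plus Mcm2, Pcna, Mki67 and Top2a. Gnl3, Nmd3, Noc2l, Myc and the members named for their library order were added after their values were seen.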

Additional observations from a re-analysis of the deposited data

Results flagged for a closer look

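Barcodes that held no cell carried 17 UMIs of assembly factors in 192 barcodes, from 12 of the 55 genes. That is 0.0885 per barcode, against a median of 142.5 in a kept cell. This is signal outside the compared cells, at a level far under that of the cells.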

How the results depend on the processing

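Of the comparison results recomputed over 19 alternative settings, 163 of 195 values kept their direction and call or moved by less than their spread. The count of members past the threshold was 1 in place of 0 between genotypes without a gene filter, with DESeq2 and with the replicate block, in lower-share cells without a gene filter and with the block, in the cell-cycle contrast with DESeq2 and for S phase genes alone, and in the interaction it ran between 0 and 1 with a replicate left out. With a replicate left out the count below 0 between genotypes ran between 36 and 47 and the median between -0.45 and -0.16. In lower-share cells the count past the threshold ran between 0 and 1, the count below 0 between 34 and 40 and the median between -0.32 and -0.19. In the cell-cycle contrast the count above 0 ran between 33 and 43 and the median between 0.11 and 0.38, and in the interaction the median ran between -0.28 and 0.21. The all-cell genotype median was -0.14 in lineage-low cells. The cell-cycle count above 0 was 22 of 29 tested after thinning and 12 of 53 for the highest 10%, against 33.6% of all genes in the latter. The median for the highest 10% was -0.77, against -0.41 for all genes. The interaction median was -0.27 in lineage-low cells, -0.26 thinned, -0.98 for the highest 10%, -0.35 for the highest 50%, -0.46 for S phase genes alone, -0.29 for G2/M genes alone and -0.32 with 1 cutoff over all cells.

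The small-to-large ratio of Mat KO replicate 1 was 0.904 thinned and 0.904 in lower-share cells, that of Mat KO replicate 2 was 0.909 in lineage-low cells, 0.921 thinned and 0.932 in lower-share cells, and that of WT replicate 1 was 0.778 in lineage-low and 0.727 in lower-share cells. Pearson's r with S phase genes in lineage-low cells was 0.43 and 0.34 for Mat KO cells and 0.11 and 0.26 for WT cells. Single genes changed sign as follows. Between genotypes, Top2a (0.02) ran between -0.0164 and 0.0385 with a replicate left out, and was -1.40 in lineage-low cells, -0.0840 thinned and -0.0845 without each library's leading cell. Ebna1bp2 ran between -1.61 and 0.11 with a replicate left out (above 0 without Mat KO replicate 2 and without WT replicate 2). Mxd1 was -0.0552 and Mki67 -0.84 in lineage-low cells, and Rrp1b 0.0863 thinned. In the cell-cycle contrast of lineage-low cells Noc4l was -0.10, Utp14a -0.27, Imp3 -0.14 and Nolc1 -0.0728. For the highest 10% Mphosph10 was -0.19, Imp3 -0.14, Rpf2 -0.81, Wdr12 -0.88, Rrp1 -0.0546, Mrto4 -0.80, Brix1 -0.16, Nolc1 -0.25, Mybbp1a -0.38 and Ncl -0.0907. For the highest 50% Imp3 was -0.0320, Noc3l 0.44 and Brix1 -0.0121. For S phase genes alone Noc3l was 0.29 and Brix1 -0.0197, and Imp3 was -0.66 thinned. The cause of these moves was not tested.

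Replicate numbers were not taken to pair libraries, since the labels do not say that they do. The difference of replicate 1 minus 2 in Mat KO correlated with that in WT with r of -0.02 over 10663 genes. With 1 such difference per genotype this cannot exclude a shared preparation. The replicate block gave Mphosph10 an adjusted p of 0.026 between genotypes and moved the calls over all genes to 109, against 8 without the block, 120 with DESeq2 and 149 without a gene filter; in lower-share cells these were 88, 7, 77 and 110. In the cell-cycle contrast 515 genes were called, 344 without the library block, 1093 with DESeq2, 773 without a gene filter and 138 in lineage-low cells; in the interaction 1, 0, 3, 5 and 2. Depth limits the single genes: 19 members had under 50 UMIs in a Mat KO library and 3 in a WT library.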
